A study of Mus musculus with 14 samples.

Results

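The genes described here are the mouse Rab GTPases: every gene of the count table whose symbol is Rab followed by a number, with at most a letter and a digit after it, and which encodes a Rab protein. The rule used names only, and it found 59 members among 24100 genes. Rab GTPases are small proteins of the Ras superfamily that mark the membranes of the secretory and endocytic pathways. Each switches between a GTP-bound form that recruits effector proteins to a membrane and a GDP-bound form that can be taken off it. Exchange factors load GTP, GTPase-activating proteins speed its hydrolysis, geranylgeranyl transferase and its escort proteins add the lipid anchor, and GDP dissociation inhibitors carry the inactive form through the cytosol. In neurons the family serves synaptic vesicle release, receptor recycling, axonal transport and lysosomal turnover, and ASTN2, the protein removed here, is known for a part in the endosomal trafficking of surface proteins.

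The study sequenced RNA from the cerebellum of postnatal day 21 mice of both sexes, either with intact Astn2 (WT) or with Astn2 knocked out (KO). All mice, the WT controls included, carried the transgene Pcp2-Egfp-L10a, in which the promoter of the Purkinje cell gene Pcp2 drives a green fluorescent ribosomal protein L10a. Translating ribosome affinity purification (TRAP) pulled the tagged ribosomes out of the cerebellar lysate with antibodies to the tag, so TRAP libraries hold mainly ribosome-bound RNA of Purkinje cells, the inhibitory output neurons of the cerebellar cortex. The input libraries come from a small share of the same kind of lysate set aside before purification and stand for the whole cerebellum. There were 4 WT input, 3 KO input, 3 WT TRAP and 4 KO TRAP libraries. The labels do not say which of them are separate animals, so the p-values below measure the spread between these libraries.

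Library totals ran from 18.8 to 54.2 M counts (M for mega). Astn2 averaged 94.5 ± 6.75 CPM (counts-per-million; SD, n = 4) in WT input and 130 ± 14.9 CPM (n = 3) in WT TRAP, against 0.877 ± 0.129 CPM (n = 3) and 1.52 ± 0.447 CPM (n = 4) in the KO libraries, so each library matched its genotype label. All 10 Purkinje cell markers tested were higher in TRAP than in input in both genotypes, while all 10 granule cell, all 8 oligodendrocyte and all 7 microglia markers were lower. The other panels were less uniform. In WT 8 of 9 Bergmann glia and astrocyte markers were lower and Aldoc, a gene that Purkinje cells also express, higher at 2.77. Also in WT, 6 of 7 molecular layer interneuron markers and all 6 endothelial markers were lower. Of 6 choroid plexus markers Clic6 was higher in WT and 5 did not pass. In KO the glial and interneuron counts were the same, but 3 of 6 endothelial markers were lower and 3 did not pass. Of the choroid plexus markers 1 was higher and 5 were lower in KO. Summed over the list, the granule cell markers still read 648 to 1111 CPM in WT TRAP and 706 to 1156 CPM in KO TRAP, against 4210 to 4468 CPM in input, and the oligodendrocyte markers 963 to 1845 CPM and 936 to 2105 CPM, against 4890 to 7224 CPM. A pair of libraries stood apart for the Rab genes: WT TRAP replicate 3 was the library farthest from the others of its group for 36 of 54 Rab genes, or 66.7%, where the share over all genes was 55.9%, and KO input replicate 3 was farthest for 33 of 54, or 61.1%, against 35.0% of all genes. For the 19 genes whose level in every library is given below, the TRAP over input value in WT is followed by that without WT TRAP replicate 3 where it moved by 0.1 or more, and the 4 leading genotype differences in input by those without KO input replicate 3.

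How far the counts of related Rab genes can be kept apart bears on every value, so the ends of 3 pairs of coding sequences are shown. The 3′ end of a Rab coding sequence encodes the hypervariable tail, which helps to direct the protein to its membrane and ends in the cysteines that carry the lipid anchor. These pairs were chosen because their members differed in their recovery by TRAP, as described further below. Each line gives the last 90 coding bases before the stop codon, 5′ to 3′, from GENCODE M21 transcripts of the GRCm38 build (mm10), with capitals where the base differs from the partner in an alignment of the pair.
Rab4a: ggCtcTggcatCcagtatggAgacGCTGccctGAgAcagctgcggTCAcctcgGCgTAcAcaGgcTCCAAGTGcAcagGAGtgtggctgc
Rab4b: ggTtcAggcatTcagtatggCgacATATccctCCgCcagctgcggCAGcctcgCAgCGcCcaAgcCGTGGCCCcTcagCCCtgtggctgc
Rab6a: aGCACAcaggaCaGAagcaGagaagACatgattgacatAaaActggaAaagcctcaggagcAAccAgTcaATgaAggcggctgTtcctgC
Rab6b: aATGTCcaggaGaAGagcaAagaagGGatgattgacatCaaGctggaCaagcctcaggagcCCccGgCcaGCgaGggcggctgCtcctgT
Rab3a: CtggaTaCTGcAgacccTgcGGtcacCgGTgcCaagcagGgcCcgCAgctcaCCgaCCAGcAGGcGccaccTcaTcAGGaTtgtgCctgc
Rab3c: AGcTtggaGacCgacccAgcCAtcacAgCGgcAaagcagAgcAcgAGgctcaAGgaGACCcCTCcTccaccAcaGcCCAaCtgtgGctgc
Rab4a and Rab4b differed at 32 of these 90 bases and Rab6a and Rab6b at 23. Over the whole coding sequence the identity was 73.2% for Rab4a and Rab4b, 78.4% for Rab6a and Rab6b and 73.2% for Rab3a and Rab3c. No Rab gene shared more than 0.701% of its 31-base words with another Rab gene, a value reached by Rab27a.

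Overlap with genes outside the family was larger for a few members. Exons of genes on the opposite strand covered at least 10% of the exon bases of 6 members, with 64% in Rab2b (Gm43766 and Tox4 together), 62.4% in Rab24 (Prelid1) and 19.0% in Rab6a (Mrpl48). Annotated transcripts of genes outside the count table, such as predicted read-through genes, also held 93.1% of the 31-base words of Rab4b (Gm21983), 90.3% of those of Rab43 (Gm45140) and 68.5% of those of Rab2b (Gm43766). Whether the counting used strand, and how it shared reads among such transcripts, is not given in the sources used here, so the levels of Rab2b, Rab4b, Rab6a, Rab24 and Rab43 are uncertain to that extent.

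**Figure D1:**
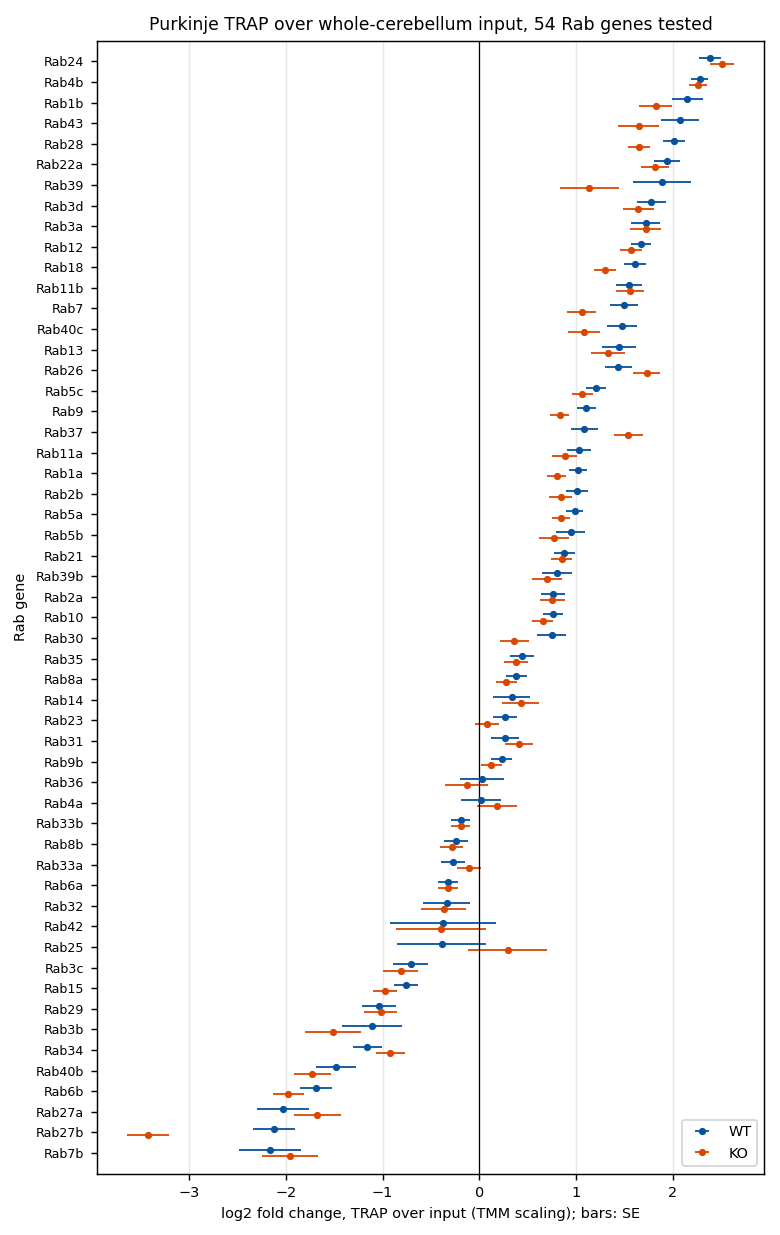
The log2 fold change of TRAP over input is plotted for the 54 Rab genes tested, in WT (blue) and KO (red), with bars of 1 standard error and genes ordered by their WT value. Values run from -2.16 (Rab7b) to 2.38 (Rab24) in WT and from -3.42 (Rab27b) to 2.51 (Rab24) in KO; under scaling to library totals all values move down by about the shift given in the text.

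Most Rab genes were recovered more by TRAP than the average gene. Of the 59 members, 54 had enough counts to be tested, and Rab17, Rab19, Rab20, Rab38 and Rab44 did not, each averaging at most 0.272 CPM in any group. In WT, 42 of the 54 passed the test (edgeR quasi-likelihood, Benjamini-Hochberg adjusted p under 0.05 over all genes): 31 were higher in TRAP and 11 lower. Over all 16042 genes tested 75.5% passed, 37% higher and 38.5% lower. The median log2 fold change, positive where TRAP is higher, was 0.76 over the Rab genes and -0.09 over all genes. In KO, 44 of the 54 passed, 32 higher and 12 lower, against 75.9% of all genes, 36.3% higher and 39.6% lower, and the medians were 0.68 and -0.11. Without WT TRAP replicate 3 the WT counts were 32 higher and 13 lower of 55, and the medians 0.58 and -0.18. Without KO input replicate 3 the KO counts were 31 higher and 10 lower of 55.

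The genotypes, which share no library but were read from 1 fit with a shared spread and sex term, gave the same calls for nearly all members. A set of 31 Rab genes was higher in both genotypes and 11 were lower in both, none was called in opposite directions, and 10 passed in neither. Of all genes 75.5% passed in WT and 75.9% in KO, and the share with the same call in both was not counted. Rab31, which acts between the Golgi and endosomes, passed as higher in KO, at 0.41, and did not pass in WT, at 0.26. Rab8b, a Rab of traffic to the cell surface, was lower in KO with -0.28 and did not pass in WT, at -0.24. By at least 1 on the log2 scale, 22 Rab genes were higher and 8 lower in WT, against 23.5% and 28.4% of all genes. Input and TRAP libraries did not overlap for 44 members in WT, where 72.6% of all genes showed this, and for 47 in KO, against 78%.

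These counts depend on how libraries are set against each other. With library totals alone in place of trimmed-mean (TMM) factors, the median of all genes moved to -0.91 in WT and -0.85 in KO, and the Rab genes split into 18 higher and 24 lower in WT and 16 higher and 23 lower in KO. Over all genes 19.5% were then higher and 61.1% lower in WT, and 19.5% and 60.3% in KO. A change of scaling moves all genes nearly alike and so hardly touches a gene's place among them: 37 of 54 Rab genes lay above the median of all genes in WT and 38 in KO. All 11 genes lower in WT under TMM were also lower under library totals, and of the 31 higher genes 18 stayed higher, 11 no longer passed and 2 were lower. In KO all 12 lower genes stayed lower, and of the 32 higher genes 16 stayed higher, 13 no longer passed and 3 were lower.

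**Figure D2:**
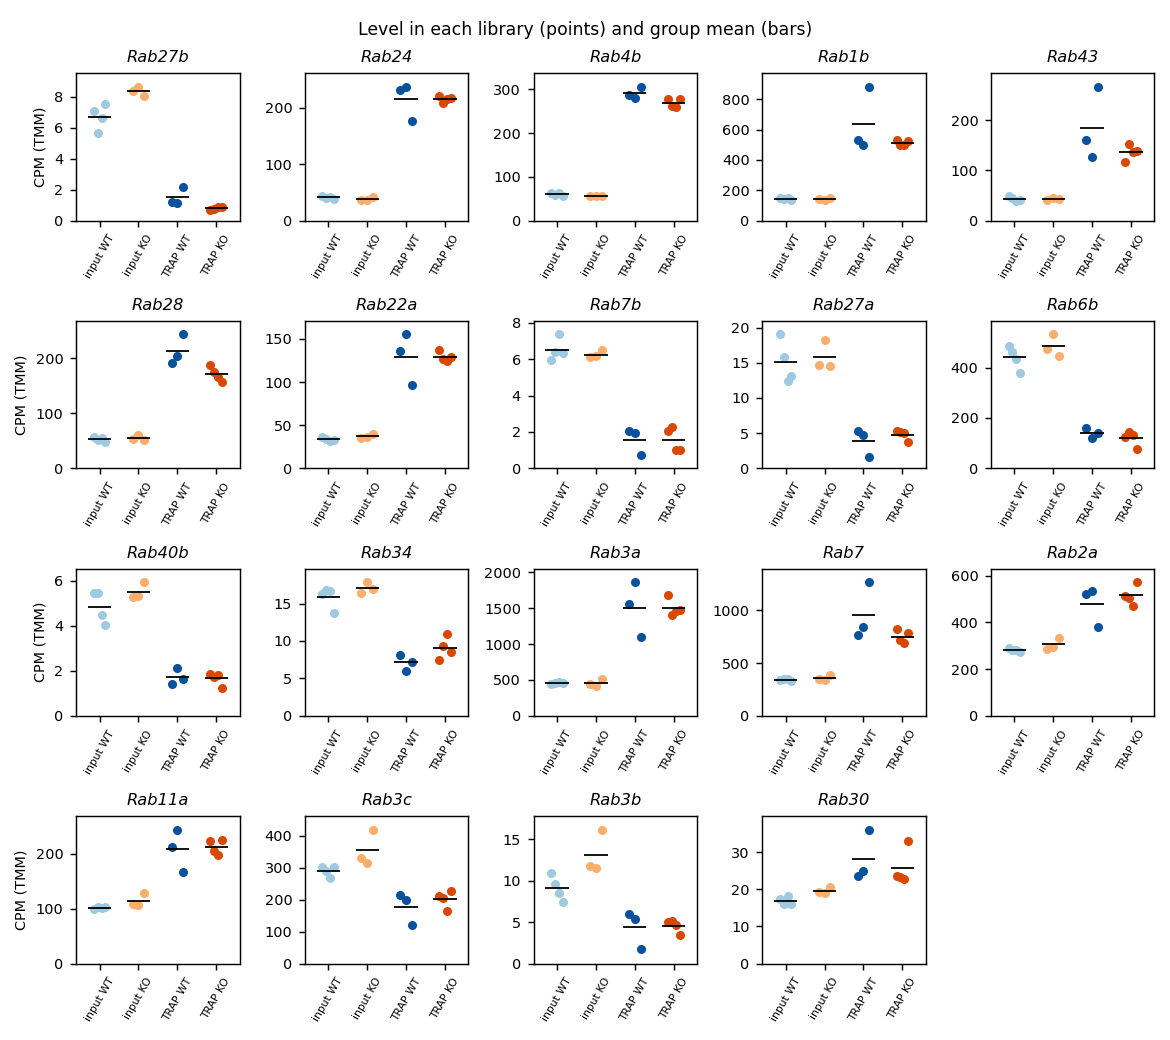
Level in CPM (TMM-scaled) of the 19 Rab genes with values given in the text, one point per library and a bar at the group mean, with each axis starting at 0. Rab4b sits at 55.9 to 62.8 CPM in all inputs and at 260 to 306 CPM in all TRAP libraries, while Rab6b falls from 379 to 533 CPM in input to 76.6 to 160 CPM in TRAP.

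No Rab of the early endosome group was called lower in TRAP. Its 11 members, Rab24 and Rab31 among them, were assigned to it by hand. Of these, 9 were tested and 7 were higher in WT, against 37% of all genes, with a median log2 fold change of 0.99. In KO 8 were higher, against 36.3% of all genes. Lower were 38.5% of all genes in WT and 39.6% in KO. With library totals, 4 were higher and 2 lower in WT, and all 9 lay above the median of all genes. Of all genes 19.5% were then higher and 61.1% lower in WT, here and for the groups below. Rab4b (gene ID 19342, chr7:27168424-27178896), which drives fast recycling from early endosomes, read 62.8, 57.9, 62.5 and 57.1 CPM in WT input, 55.9, 56.9 and 56.9 CPM in KO input, 288, 281 and 306 CPM in WT TRAP and 279, 263, 260 and 278 CPM in KO TRAP. Every TRAP library was above every input library by a wide gap. On the log2 scale TRAP exceeded input by 2.28 ± 0.09 (SE; adjusted p 1.3e-10) in WT and 2.26 ± 0.09 in KO.

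Rab24 (gene ID 19336, chr13:55319743-55321946), an atypical Rab linked to autophagy, had the highest ratio in the family. It read 44.4, 39.3, 42.2 and 38.7 CPM in WT input, 36.1, 36.4 and 41.5 CPM in KO input, 232, 237 and 176 CPM in WT TRAP and 221, 208, 216 and 218 CPM in KO TRAP. No TRAP library came near the inputs, and WT TRAP replicate 3 was the lowest of the purified libraries. TRAP exceeded input by 2.38 ± 0.12 (log2; adjusted p 7.89e-10) in WT, 2.49 without that library, and 2.51 ± 0.13 in KO. Prelid1, the mitochondrial lipid-transfer gene whose exons overlap those of Rab24 on the opposite strand, was at 2.09 on the same scale in WT, and the share of its reads in the Rab24 counts was not tested.

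Rab22a (gene ID 19334, chr2:173659760-173707343), which acts in early endosomal sorting, read 35.7, 33.8, 32.1 and 32.7 CPM in WT input, 35.3, 36.0 and 39.2 CPM in KO input, 135, 155 and 96.3 CPM in WT TRAP and 137, 127, 124 and 129 CPM in KO TRAP. Replicate 3 was again the lowest WT TRAP library, still more than double any input. This gave 1.94 ± 0.13 (log2) in WT, 2.09 without that library, and 1.82 ± 0.14 in KO. The 3 Rab5 genes, the master regulators of early endosome fusion, were all higher in WT. Their log2 fold changes were 0.99 for Rab5a, 0.94 for Rab5b and 1.21 for Rab5c. With library totals Rab5a at 0.17 (adjusted p 0.087, edgeR) and Rab5b at 0.12 (adjusted p 0.441, edgeR) no longer passed in WT. Rab5c still passed, at 0.39 (adjusted p 0.0015, edgeR). Rab4a, the close relative of Rab4b, did not pass, at 0.02 ± 0.21 in WT and 0.18 ± 0.21 in KO.

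In the endoplasmic reticulum and Golgi group 13 of 14 members were tested. Of these, 9 were higher and 2 lower in both genotypes, with a median of 0.80 in WT. Over all genes 37% were higher and 38.5% lower in WT, and 36.3% and 39.6% in KO. Library totals gave 4 higher and 4 lower in WT, and 9 members lay above the median of all genes. Rab1b (gene ID 76308, chr19:5099205-5107072), required for transport from the endoplasmic reticulum to the Golgi, read 150, 144, 146 and 135 CPM in WT input, 142, 137 and 151 CPM in KO input, 530, 499 and 884 CPM in WT TRAP and 529, 496, 496 and 528 CPM in KO TRAP. The TRAP libraries lay far above the inputs and close together, apart from WT replicate 3. Its TRAP over input difference was 2.15 ± 0.16 in WT, 1.81 without that library, and 1.82 ± 0.17 in KO.

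Rab43 (gene ID 69834, chr6:87788853-87812164), a Golgi Rab, read 49.3, 45.5, 39.8 and 41.2 CPM in WT input, 41.6, 45.8 and 42.9 CPM in KO input, 161, 127 and 267 CPM in WT TRAP and 116, 153, 137 and 139 CPM in KO TRAP. Again WT TRAP replicate 3 was highest, and no TRAP library reached down to the inputs. The log2 fold change came to 2.07 ± 0.20 in WT, 1.66 without that library, and 1.65 ± 0.21 in KO. Rab2a (gene ID 59021, chr4:8535644-8607778), which works between Golgi and endoplasmic reticulum and in lysosome fusion, read 292, 283, 280 and 274 CPM in WT input, 285, 297 and 335 CPM in KO input, 521, 535 and 380 CPM in WT TRAP and 511, 505, 472 and 573 CPM in KO TRAP. The groups did not overlap and lay 0.76 ± 0.12 (log2) apart in WT, 0.89 without WT TRAP replicate 3, and 0.75 ± 0.13 in KO, yet with library totals the WT value became -0.057 and the KO value 0.02, neither past the threshold.

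The lower genes of this group were the Rab6 pair, which moves vesicles through and out of the Golgi. Rab6b (gene ID 270192, chr9:103111787-103185276), the form prominent in neurons, read 488, 463, 434 and 379 CPM in WT input, 474, 533 and 448 CPM in KO input, 160, 120 and 138 CPM in WT TRAP and 125, 146, 134 and 76.6 CPM in KO TRAP. All purified libraries fell under all inputs, and KO TRAP replicate 4 read least. The difference was -1.69 ± 0.17 (log2; adjusted p 6.38e-07) in WT and -1.98 ± 0.16 in KO. Rab6a, the broadly expressed form, was only slightly lower, at -0.32 ± 0.10 in WT (adjusted p 0.0116) and -0.32 ± 0.10 in KO. Mrpl48, whose exons overlap those of Rab6a on the opposite strand, was at 0.90 ± 0.21 in WT and 1.02 ± 0.22 in KO. The share of Mrpl48 reads in the Rab6a counts was not tested.

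Rab30 (gene ID 75985, chr7:92741603-92844535), another Golgi Rab, read 17.3, 16.0, 18.1 and 16.2 CPM in WT input, 19.2, 19.0 and 20.7 CPM in KO input, 23.7, 25.0 and 36.1 CPM in WT TRAP and 23.6, 23.4, 22.9 and 33.1 CPM in KO TRAP. Replicate 3 of WT TRAP and replicate 4 of KO TRAP were well above the rest, and the groups did not overlap. TRAP was higher by 0.75 ± 0.15 (log2) in WT, 0.53 without WT TRAP replicate 3, and by 0.36 ± 0.15 (adjusted p 0.0417) in KO. With library totals the WT value turned to -0.071 (adjusted p 0.661, edgeR). The KO value turned to -0.37 (adjusted p 0.0301, edgeR) and so passed as lower. The KO call rested on the settings: Rab30 no longer passed with the replicate block (0.25, adjusted p 0.126), with no filter on low counts (adjusted p 0.0614), among genes with a mean count of at least 50 (0.17, adjusted p 0.298) or in 10 of the fits that left out a library, that without KO TRAP replicate 4 among them (0.25, adjusted p 0.116).

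Recycling and plasma membrane Rabs were mostly higher as well. Of 10 tested, 6 were higher and 1 lower in WT, and 6 higher and 2 lower in KO, with medians of 0.41 and 0.40. The shares of all genes were 37% higher and 38.5% lower in WT, and 36.3% and 39.6% in KO. Under library totals the WT split was 2 higher and 6 lower, and 7 members lay above the median of all genes. Rab11a (gene ID 53869, chr9:64715299-64737758), the marker of the slow recycling endosome, read 99.4, 104, 101 and 103 CPM in WT input, 109, 107 and 129 CPM in KO input, 212, 244 and 167 CPM in WT TRAP and 224, 205, 197 and 224 CPM in KO TRAP. All TRAP libraries were above all inputs, by 1.03 ± 0.12 (log2) in WT, 1.16 without WT TRAP replicate 3, and 0.88 ± 0.13 in KO. With library totals these became 0.21 (adjusted p 0.114) and 0.15 (adjusted p 0.268). Rab11b, its relative that is abundant in brain, reached 1.55 ± 0.14 in WT, Rab13, known from tight junctions, 1.44 ± 0.17, and Rab15, a recycling Rab of neurons, was lower at -0.75 ± 0.12.

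Late endosome and lysosome Rabs were evenly split. Of 9 tested, 3 were higher, 3 lower and 3 did not pass in each genotype. This was near the shares of all genes, 37% higher and 38.5% lower in WT and 36.3% and 39.6% in KO. With library totals 3 were higher and 6 lower in WT. Rab7 (gene ID 19349, chr6:87999106-88045270), the general late endosome Rab, read 338, 347, 348 and 330 CPM in WT input, 346, 337 and 389 CPM in KO input, 764, 844 and 1269 CPM in WT TRAP and 820, 715, 689 and 785 CPM in KO TRAP. The purified libraries were all above the inputs, and WT TRAP replicate 3 was the highest. The log2 fold change was 1.5 ± 0.14 in WT, 1.22 without that library, and 1.06 ± 0.15 in KO.

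Rab7b (gene ID 226421, chr1:131688695-131715439), a separate gene that acts between endosomes and the Golgi, went the other way. It read 5.94, 6.40, 7.37 and 6.35 CPM in WT input, 6.12, 6.15 and 6.51 CPM in KO input, 2.05, 1.91 and 0.705 CPM in WT TRAP and 2.03, 2.28, 0.997 and 1.02 CPM in KO TRAP. Input and TRAP did not overlap, and the TRAP libraries spread more than 3-fold among themselves. TRAP over input stood at -2.16 ± 0.32 (log2; adjusted p 3.43e-05) in WT, -1.80 without WT TRAP replicate 3, and -1.96 ± 0.29 in KO.

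Rab34 (gene ID 19376, chr11:78188430-78192193), known from lysosome positioning and cilium formation, read 16.3, 16.8, 16.6 and 13.7 CPM in WT input, 16.5, 17.9 and 16.9 CPM in KO input, 8.13, 6.02 and 7.26 CPM in WT TRAP and 7.41, 9.33, 11 and 8.49 CPM in KO TRAP. The TRAP libraries were all below the inputs, which on the log2 scale made -1.16 ± 0.15 in WT and -0.92 ± 0.15 in KO. Rab12, a late endosome Rab and a substrate of the kinase LRRK2, was higher at 1.67 ± 0.10 in WT, while Rab29, another Rab tied to LRRK2, was lower at -1.04 ± 0.18.

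Secretory Rabs were split, where 37% of all genes were higher and 38.5% lower in WT, and 36.3% and 39.6% in KO. All 8 members were tested and passed in both genotypes under TMM, 4 higher (Rab3a, Rab3d, Rab26 and Rab37) and 4 lower (Rab3b, Rab3c, Rab27a and Rab27b). With library totals Rab37 in WT was at 0.26 (adjusted p 0.083, edgeR) and no longer passed, and the other calls of this group held. Rab3a (gene ID 19339, chr8:70754679-70758677), the main Rab of synaptic vesicles, read 442, 459, 471 and 463 CPM in WT input, 450, 410 and 508 CPM in KO input, 1562, 1865 and 1094 CPM in WT TRAP and 1685, 1406, 1461 and 1477 CPM in KO TRAP. The lowest TRAP library, WT replicate 3, was still more than double the highest input. TRAP stood above input by 1.72 ± 0.15 (log2) in WT, 1.90 without that library, and 1.72 ± 0.16 in KO.

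Its relatives Rab3c and Rab3b, which also serve regulated exocytosis, were lower. Rab3c (gene ID 67295, chr13:110054187-110280996) read 303, 289, 266 and 301 CPM in WT input, 330, 315 and 419 CPM in KO input, 215, 200 and 120 CPM in WT TRAP and 211, 204, 164 and 227 CPM in KO TRAP, or -0.71 ± 0.19 (log2) in WT, -0.51 without WT TRAP replicate 3, and -0.81 ± 0.18 in KO. Rab3b (gene ID 69908, chr4:108879063-108943324) read 11, 9.65, 8.47 and 7.48 CPM in WT input, 11.8, 11.5 and 16.2 CPM in KO input, 6.02, 5.40 and 1.78 CPM in WT TRAP and 5.07, 5.16, 4.63 and 3.5 CPM in KO TRAP. For both genes no TRAP library reached the inputs, and WT TRAP replicate 3 was the lowest of all. For Rab3b the log2 value was -1.11 ± 0.31 in WT, -0.73 without that library, and -1.51 ± 0.29 in KO.

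The Rab27 genes, which dock secretory granules and lysosome-related organelles at the cell surface, were both low in the purified RNA. Rab27b (gene ID 80718) read 7.08, 5.66, 6.65 and 7.51 CPM in WT input, 8.37, 8.66 and 8.04 CPM in KO input, 1.23, 1.13 and 2.16 CPM in WT TRAP and 0.663, 0.737, 0.880 and 0.885 CPM in KO TRAP. The 4 groups did not overlap in any pairing, and the TRAP values rest on 18, 20 and 52 counts in WT and 17, 21, 15 and 20 in KO. TRAP over input was at -2.12 ± 0.22 (adjusted p 9.58e-07) in WT, -2.54 without WT TRAP replicate 3, and -3.42 ± 0.22 (adjusted p 1.11e-08) in KO. Rab27a (gene ID 11891, chr9:73044854-73097629) read 19.1, 15.8, 12.5 and 13.1 CPM in WT input, 14.8, 18.2 and 14.6 CPM in KO input, 5.26, 4.73 and 1.66 CPM in WT TRAP and 5.30, 5.19, 4.98 and 3.72 CPM in KO TRAP. Input and TRAP were again apart, at -2.03 ± 0.27 in WT, -1.68 without WT TRAP replicate 3, and -1.67 ± 0.24 in KO. The median in WT was -2.29 over the granule cell markers, -2.11 over the oligodendrocyte markers and -2.05 over the microglia markers. In KO these medians were -2.03, -1.86 and -1.97. The share of RNA from other cell types in the TRAP counts of the Rab27 genes was not tested.

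Among the less studied members 5 of 6 were tested, with 2 higher, 1 lower and 2 not passed in each genotype. All genes gave 37% higher and 38.5% lower in WT, and 36.3% and 39.6% in KO. Rab28 (gene ID 100972, chr5:41624976-41708157), known from photoreceptors and cilia, read 56.8, 50.9, 54.8 and 48.1 CPM in WT input, 53.4, 60 and 52.1 CPM in KO input, 191, 204 and 244 CPM in WT TRAP and 188, 176, 166 and 158 CPM in KO TRAP. The TRAP libraries were far above the inputs, at 2.01 ± 0.11 in WT, 1.86 without WT TRAP replicate 3, and 1.65 ± 0.12 in KO. Rab40b (gene ID 217371, chr11:121356125-121388251), which couples to a ubiquitin ligase complex through its SOCS box, read 5.44, 5.44, 4.48 and 4.04 CPM in WT input, 5.27, 5.33 and 5.94 CPM in KO input, 1.44, 2.14 and 1.62 CPM in WT TRAP and 1.87, 1.72, 1.82 and 1.24 CPM in KO TRAP. All TRAP values were below all inputs, at -1.48 ± 0.21 in WT and -1.73 ± 0.19 in KO. Rab40c, which has the same box, was higher at 1.47 ± 0.16 in WT.

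**Figure D3:**
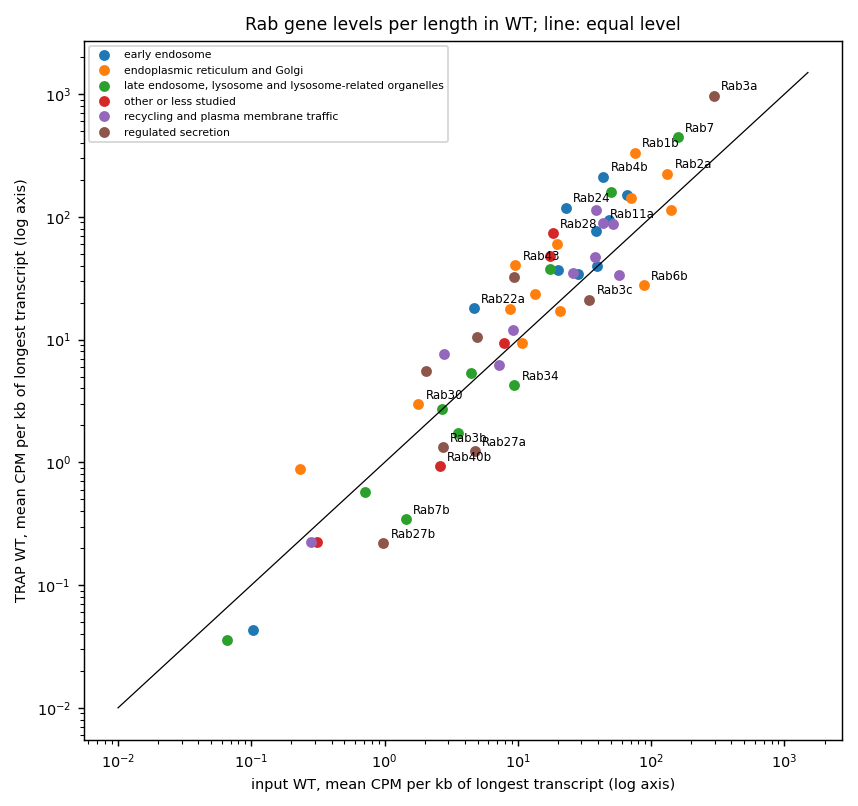
Mean level per kilobase of the longest transcript in WT input (x, log axis) against WT TRAP (y, log axis), one point per Rab gene, coloured by role, with the line of equal level; Rab17, Rab19 and Rab44, at 0 in WT TRAP, have no place on the axes. Rab3a is at the top in both fractions, and Rab6b lies below the line beside members of like input level that lie above it.

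To set levels of different genes side by side they were divided by transcript length, as CPM per kilobase of the longest annotated transcript. In WT TRAP the highest was Rab3a with 969 ± 250 (SD, n = 3), followed by Rab7 with 444 ± 126, Rab1b with 333 ± 112, Rab2a with 224 ± 40.3 and Rab4b with 212 ± 9.68. Rab3a stood above the next gene by more than the spread of either, whereas each of the other neighbours in this order, Rab7 and Rab1b, Rab1b and Rab2a, and Rab2a and Rab4b, differed by less than the larger SD of the pair. In WT input Rab3a was again highest at 295 ± 7.97 (n = 4), followed by Rab7 at 158 ± 3.92, Rab6a at 141 ± 0.895 and Rab2a at 132 ± 3.61. The same measure put Rab6b at 88.1 in WT input, above Rab1b at 75.2 and Rab4b at 43.8. The order rests on the transcript length assumed: with the median length of a gene's transcripts, Rab1b reached 806 in WT TRAP, above Rab7 at 579, Rab4b reached 387, and Rab3a stayed highest at 1101.

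**Figure D4:**
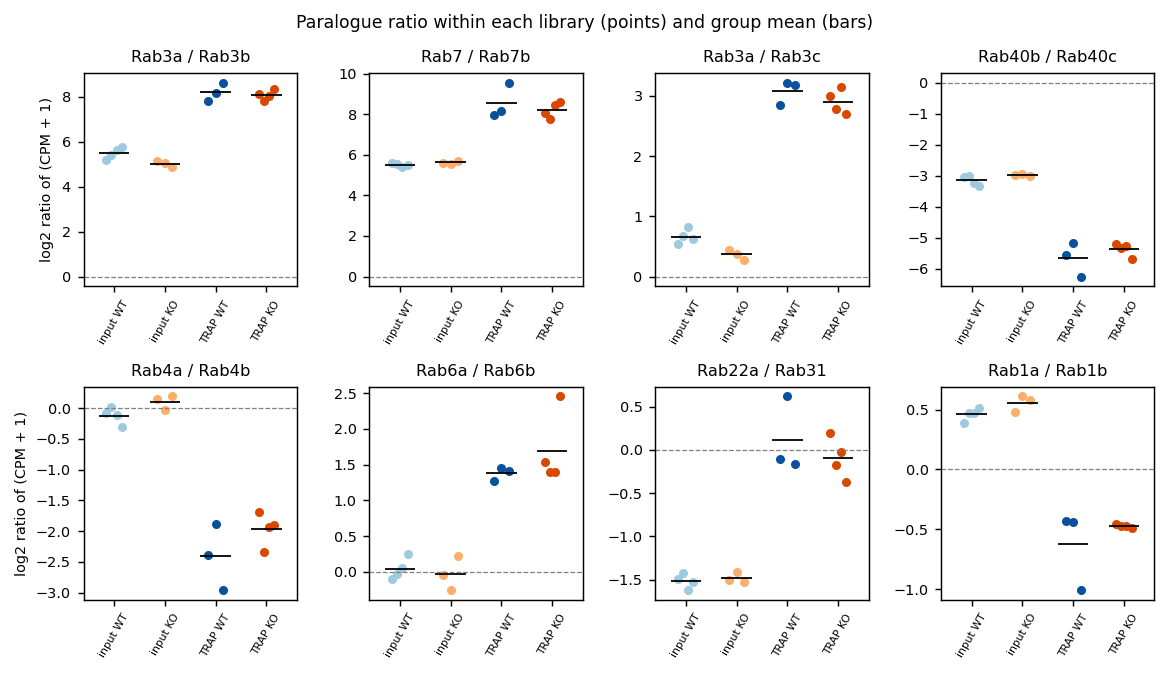
Log2 ratio of the levels of 2 related Rab genes within each library (points, each with 1 CPM added) and group means (bars), for the 8 pairs whose ratio differed between fractions by at least 1. The ratio Rab4a to Rab4b averages -0.12 in WT input, 0.10 in KO input, -2.41 in WT TRAP and -1.97 in KO TRAP, and Rab3a to Rab3c goes from 0.66 to 3.09 in WT.

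Close relatives were often recovered unequally. For 21 pairs of related Rab genes the log2 ratio of their levels was taken within each library, which removes the scaling between libraries apart from the 1 CPM added to each level. Levels in these ratios were not divided by length, so only the difference of a ratio between fractions is read, not its sign or size. The mean difference between TRAP and input within a genotype was tested with an exact two-sided permutation test over all 1225 splits of the fraction labels, and p-values were adjusted over the 21 pairs, some of which share a gene. By this test 14 pairs differed between fractions, 8 of them by at least 1. Pairs of other genes were not tested, so this count does not set Rab pairs apart. Between TRAP and input 75.5% of all single genes passed in WT and 75.9% in KO. The smallest p the design allows is 0.000816, which gives an adjusted p of 0.00132.

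The log2 ratio of Rab3a to Rab3b was higher in TRAP by 2.88, that of Rab7 to Rab7b by 2.83 and that of Rab3a to Rab3c by 2.48. The ratio of Rab40b to Rab40c changed by -2.44 and that of Rab4a to Rab4b by -2.18. Each of these 5 had the smallest p. The sequence pairs printed above are thus cases where similar proteins had unlike ratios. Rab4a to Rab4b averaged -0.12 ± 0.13 (SD, n = 4) in WT input and 0.10 ± 0.12 (n = 3) in KO input, against -2.41 ± 0.54 (n = 3) in WT TRAP and -1.97 ± 0.27 (n = 4) in KO TRAP. Rab6a to Rab6b averaged 0.05 ± 0.15 in WT input and -0.03 ± 0.23 in KO input, against 1.38 ± 0.10 in WT TRAP and 1.70 ± 0.51 in KO TRAP, where replicate 4 was the highest. Rab3a to Rab3c averaged 0.66 ± 0.12 and 0.37 ± 0.09 in the inputs, against 3.09 ± 0.20 and 2.90 ± 0.21 in TRAP.

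The other 7 pairs did not pass this test, which does not show that their ratios were equal. Rab3a to Rab3d, another secretory relative, differed by 0.02 (adjusted p 0.930) and Rab5a to Rab5b by 0.08 (adjusted p 0.467) in the exact permutation test. Rab27a to Rab27b differed by 0.34 over both genotypes (adjusted p 0.361, exact permutation test), made up of -0.16 in WT, where the fractions overlapped, and 0.84 in KO, where they did not, with 0.75 to 0.99 in input and 1.32 to 1.92 in TRAP. The contrast between genotypes is not addressed by this test. The 1 CPM added to each level exceeded the level of Rab27b in every KO TRAP library, so this ratio depends on that constant. In the edgeR fits, TRAP over input for Rab27a and Rab27b was -2.03 and -2.12 in WT and -1.67 and -3.42 in KO.

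No Rab gene passed the threshold between genotypes in the purified RNA, where the SE of a member's log2 difference ran from 0.14 to 0.39 with a median of 0.19, so small differences were not detectable. In KO against WT TRAP, 0 of 52 members tested passed with edgeR, where 0.00707% of 14145 genes did, and 1 had an unadjusted p under 0.05, against 1.5% of all genes. DESeq2 also called 0 members, against 0.0212% of all genes, and 0 had an unadjusted p under 0.05, against 1.52%. The median log2 difference, positive where KO is higher, was -0.03 over the Rab genes and 0.00 over all genes. The member with the small p was Rab27b, at -0.86 ± 0.35 (p 0.0379, adjusted p 1.00, edgeR): its 4 KO TRAP values of 0.663 to 0.885 CPM lay below the 3 WT values of 1.13 to 2.16 CPM. Without WT TRAP replicate 3, the highest, the difference was -0.57 (adjusted p 0.940). Libraries of the genotypes did not overlap for 4 members, with Rab26 higher and Rab4b, Rab27b and Rab28 lower in KO, against 4.49% of all genes, 1.8% higher and 2.69% lower.

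In whole-cerebellum input 0 of 55 members passed with edgeR, against 0.0188% of 15997 genes, and 6 had an unadjusted p under 0.05, all higher in KO, against 13.7% of all genes in either direction and 6.24% higher. DESeq2 called 1 member, Rab3c, at 0.33 (adjusted p 0.0456), and 1.84% of all genes, so 1 of 55 is at the background. In bulk RNA, fewer cells of a type and less RNA per cell cannot be told apart. Rab11a was at 0.21 ± 0.06 (p 0.0058, adjusted p 0.221, edgeR), and its 3 KO inputs at 107 to 129 CPM lay above the 4 WT inputs at 99.4 to 104 CPM. Rab3c was at 0.32 ± 0.10 (adjusted p 0.233), Rab3b at 0.53 ± 0.16 (adjusted p 0.233) and Rab30 at 0.21 ± 0.07 (adjusted p 0.273). KO input replicate 3 was the highest input library for all 4 of these genes, and without it the values were 0.14 for Rab11a, 0.11 for Rab3c, 0.11 for Rab3b and 0.16 for Rab30, with adjusted p from 0.806 to 0.904. Libraries did not overlap for 10 members, 9 higher and 1, Rab4b, lower in KO, against 10.3% of all genes, 6.09% higher and 4.24% lower. In the same inputs the endothelial markers summed to 12.9 to 19.5 CPM in KO and 20.2 to 28.3 CPM in WT with none at 0, and the choroid plexus markers to 10.5 to 1167 CPM in KO and 12 to 400 CPM in WT, and their part in these values was not tested.

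The test of whether the TRAP over input ratio itself differed between genotypes called 0 of 54 Rab genes with edgeR, where 0% of 16042 genes passed, and 3 had an unadjusted p under 0.05, against 2.68% of all genes. DESeq2 called 0, against 0.00623% of all genes, with 7 at an unadjusted p under 0.05, against 3.69%. The 3 were Rab27b at -1.30 ± 0.31 (p 0.000908, adjusted p 0.999), Rab28 at -0.36 ± 0.16 (p 0.0364) and Rab37, a Rab of secretory granules, at 0.46 ± 0.20 (p 0.0382), all edgeR. For Rab27b the difference held both a lower level in KO TRAP and a higher level in KO input, the latter at 0.26 ± 0.12 (p 0.0526), and it was -0.89 without WT TRAP replicate 3. The ratio was larger in WT than in KO for 40 of 54 members, and the share of all genes with this direction was not counted. The median difference was -0.11 over the Rab genes and -0.02 over all genes, and -0.07 and 0.00 without WT TRAP replicate 3. Above the median of all genes lay 17 of 54 members, and 18 of 55 without that library.

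**Figure D5:**
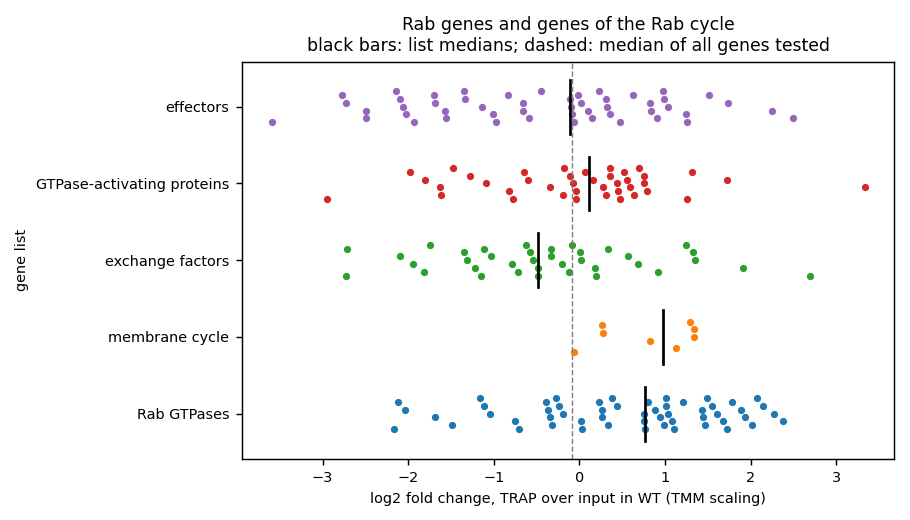
Log2 fold change of TRAP over input in WT (TMM scaling) for the Rab genes and for 4 lists of genes that act on Rabs, one point per gene, with black bars at the list medians and a dashed line at the median of all genes tested. Rab genes (median 0.76) and the membrane cycle list (0.98) lie mostly to the right of the line, exchange factors (-0.48) to its left, and effectors (-0.11) around it.

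Genes that act on Rabs did not share the family's shift as a body. Over all genes tested 37% were higher and 38.5% lower in WT, and 36.3% and 39.6% in KO. The membrane cycle list, the prenylation and GDP dissociation proteins, came closest: 6 of 8 were higher in TRAP and none lower in both genotypes, with a median of 0.98 in WT, although with library totals 3 were higher and 3 lower in WT and all 8 lay above the median of all genes. Its largest values in WT were 1.34 for Rabif, a chaperone of nucleotide-free Rabs, 1.34 for Rabggtb, the catalytic subunit of geranylgeranyl transferase, and 1.29 for Chml, an escort protein, while the lowest were 0.28 for Rabggta, 0.27 for Gdi2 and -0.06 for Chm. Of 37 exchange factors 8 were higher and 20 lower in WT, with a median of -0.48. Dennd10 at 2.69, Dennd2d at 1.91 and Mon1a, part of the Rab7 exchange factor, at 1.35 were the highest, and Rin1 at -2.73, Rin3 at -2.72 and Denn2b at -2.10 the lowest.

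GTPase-activating proteins were split much as all genes were, with 16 of 40 higher and 13 lower in WT and a median of 0.11. Grtp1 at 3.33, Tbc1d7, a partner of the tuberous sclerosis complex, at 1.73 and Sgsm3 at 1.31 were the highest, and Rabgap1l at -2.95, Tbc1d31 at -1.97 and Tbc1d2b at -1.81 the lowest. Of 52 effectors 50 were tested, 15 were higher and 24 lower in WT, with a median of -0.11. Rab11fip1, a Rab11 effector, at 2.49, Mlph, which links Rab27a to myosin Va, at 2.26 and Rilpl2 at 1.74 were the highest. Sytl5, a Rab27 effector, at -3.60, and Rims1 and Rims3, active zone proteins of which Rims1 binds Rab3, at -2.77 and -2.73 were the lowest. With library totals the WT splits became 5 higher and 29 lower for exchange factors, 3 and 27 for GTPase-activating proteins and 6 and 35 for effectors. Over all genes 19.5% were then higher in WT and 61.1% lower. In KO against WT, 0 genes of the 4 lists passed in either fraction with edgeR, against 0.00707% of all genes in TRAP and 0.0188% in input. In TRAP only 1 gene of the lists, among 49 effectors tested, had an unadjusted p under 0.05, against 1.5% of all genes. In input 12 of 51 effectors, 6 of 37 exchange factors, 5 of 40 GTPase-activating proteins and 1 of 8 membrane cycle genes did. The share over all genes in input was 13.7%, and no list was tested against it.

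Promoter entries were found for 48 of the 59 members in the RefSeq table (GRCm38.p6). The GC box GGGCGG, searched on both strands in the 150 bases before the start, was present in 29 of the 48, or 60.4%, against 28.6% of the 32851 starts in the table, and TATAAA, searched the same way, in 2 of the 48, or 4.17%, against 7.57%. A gene can have several starts in the table, and for each member the start nearest to its annotated 5′ end was taken. The shares over the table count every start, so they and the CpG medians that follow compare unlike sets. The median number of CpG dinucleotides in this window was 10.5 over the members and 4 over all promoters. These matches describe only the letters in the window and were not compared between genes higher and lower in TRAP.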

How the data were processed

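The deposited values are whole-number counts per gene for 14 mouse cerebellum libraries, identified by Entrez gene ID. The submitters' processing notes name Salmon 0.8.2 and the genome build mm10; the annotation, the strand setting and how counts were made whole are not given in the sources used here. Symbols were taken from RefSeq for 24045 of 24100 genes. The Rab genes and the lists of related genes, pairs and markers were chosen with earlier results of these data known, so no list or pattern is independent evidence.

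Counts were fitted with edgeR 4.0.16 (R 4.3.3; TMM factors, filterByExpr, quasi-likelihood test, p adjusted by Benjamini-Hochberg over all genes tested, threshold 0.05). TRAP against input and the interaction used all 14 libraries with group means and sex; KO against WT used the 7 libraries of a fraction with genotype and sex. SEs were derived from the fold change and the F statistic of each test. CPM use TMM factors over all libraries, and levels per length use GENCODE M21. A count of 0 allows up to 3 counts, or 0.0553 to 0.160 CPM over the libraries, for counting error only. The fit was tested on simulated data. No 2 libraries of the same group agreed within sampling noise; libraries of different groups were not compared.

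Values in every library were given for Rab27b, the 6 highest and 6 lowest TRAP over input ratios in WT among Rab genes past the threshold in both genotypes, the 5 highest levels per length in WT TRAP, and up to 4 genes with the smallest unadjusted p in KO against WT in each fraction. Rab4a, Rab6a and other members appear as group examples, related pairs or the members of short counts. The 5 pairs with the largest difference and the 3 largest values either way of each list were named; Rab6a and Rab6b were added after their values were seen. Alternatives were another normalization (DESeq2 1.42.0 size factors, library totals), other count filters, the DESeq2 Wald test, no sex term, a fold threshold, a replicate block, all libraries in one fit, another pseudocount and length, and each library left out in turn.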

Additional observations from a re-analysis of the deposited data

Results flagged for a closer look

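Among the 19 Rab genes with values in every library, 38 sets of 4 libraries were checked for a library far from its group, as the gap to its nearest neighbour over the range of the group, and 2 exceeded Dixon's critical value for sets of this size, about the number that chance gives at this level. For Rab34 in WT input the ratio was 0.850, with replicate 4 at 13.7 CPM below the others at 16.3 to 16.8 CPM. For Rab30 in KO TRAP the ratio was 0.912, with replicate 4 at 33.1 CPM above the others at 22.9 to 23.6 CPM. Without that library the log2 fold change of Rab30 in KO was 0.25 (adjusted p 0.116).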

How the results depend on the processing

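The counts of Rab genes higher and lower in TRAP were 31 and 11 in WT and 32 and 12 in KO. Scaling to library totals moved them to 18 and 24 in WT and to 16 and 23 in KO, with the median of all genes at -0.91 and -0.85. Under it Rab2a in WT turned to -0.057 and Rab30 in WT to -0.071, neither past the threshold. Rab30 in KO turned to -0.37 and passed as lower. A further fold threshold of 1 on the log2 scale left 18 higher and 7 lower in KO. In input KO against WT, the DESeq2 Wald test called 1 Rab gene higher where edgeR called 0. No other alternative moved a count by more than 1.5 times.

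Leaving out each library in turn gave 31 to 32 higher and 11 to 13 lower in WT and 29 to 33 higher and 10 to 13 lower in KO, 0 to 0 calls in KO against WT and in the interaction, and 14 to 16 pairs. Single genes kept their direction and side of the threshold in these fits, except Rab30 in KO, which lost the threshold in 10 of them. The levels per length with the median transcript length are given beside the levels.

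Deviations of same-numbered input and TRAP libraries correlated at 0.292, 0.243 and 0.098 in WT and at 0.225, 0.225 and -0.125 in KO, where KO input replicate 3 correlated best with KO TRAP replicate 4 (0.346). In WT, TRAP replicate 3 correlated best with input replicate 4 (0.181). The labels name no shared animal and not every pair exceeded 0.1, so the numbers were not taken to pair the libraries. The replicate block joined libraries of the same number, and no other pairing was fitted. With this block, 31 Rab genes were higher and 11 lower in WT, and 29 higher and 12 lower in KO. By genotype or in the interaction 0 differed, and 14 pairs passed. Of the named genes Rab30 in KO no longer passed.

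Counts limit the low members: Rab27b rests on 15 to 52 counts in a TRAP library. Groups of 3 or 4 libraries of unequal sex balance, unknown animals and unknown strand handling limit the rest.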
